A study of Bos taurus with 3 samples.

Results

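The let-7 family of microRNAs (miRNAs) and bta-miR-3596, a miRNA annotated opposite let-7b, were examined in bovine milk-derived extracellular vesicles (BM-EVs). The 10 members were taken by name: the 9 miRNAs of the let-7 and miR-98 seed family (bta-let-7a-5p, bta-let-7b, bta-let-7c, bta-let-7d, bta-let-7e, bta-let-7f, bta-let-7g, bta-let-7i and bta-miR-98) and bta-miR-3596. All 10 were listed in every library, out of 745 miRNAs listed in at least 1 library and 435 listed in every library. The vesicles came from pasteurized skimmed milk that was labelled normal and untreated, and were precipitated with ammonium sulfate after acid removal of casein. Small RNA was sequenced in 3 libraries of this 1 condition, each made from 100 ng of total RNA, with no comparison group. The milk was a retail product, and milk of different expiry dates served as biological replicates where the vesicles were characterized. The sources used here do not say which milk sample each library came from, so the spread between libraries may be technical as well as biological.

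Let-7 is among the most conserved animal miRNAs. It was first described in the worm Caenorhabditis elegans as a regulator of developmental timing, and in mammals it is known for holding cells in a differentiated state. The members carry the same seed, the short stretch near the 5′ end that pairs with target messenger RNAs, and so are thought to share many targets, such as HMGA2, LIN28 and the RAS genes in human cells. LIN28 in turn blocks the maturation of let-7 precursors. A mature miRNA is cut from 1 arm of a hairpin precursor, and the same mature let-7 sequence can come from hairpins at several places in the genome.

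The unit is the UMI, a unique molecular index that lets PCR copies of a molecule be counted once. The mature miRNA counts summed to 77225, 373239 and 102058 UMIs in libraries 1, 2 and 3, which was 7.08%, 16.2% and 10.6% of all miRNA and Rfam UMIs (Rfam being the database of other small RNAs). No entry with fewer than 11 UMIs was listed, so an unlisted miRNA had at most 10. A share below is the percentage of the mature miRNA UMIs of a library unless another total is named. Its Wilson 95% confidence interval covers counting error only.

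The family was dominated by a single member. The 9 family members together held 46.1%, 47.5% and 42.4% of the mature miRNA UMIs in libraries 1, 2 and 3 (45.3% ± 2.65, SD, n = 3 libraries). The Wilson intervals of the 3 libraries, 45.8 to 46.5%, 47.3 to 47.7% and 42.1 to 42.7%, did not overlap, so the libraries differed by more than counting error. With bta-miR-3596 the sum was 52.7%, 51.8% and 46.3%. Against all miRNA and Rfam UMIs, the 9 members held 3.27%, 7.67% and 4.48%, a wider spread that moved with the mature share of each library given above.

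Bta-let-7b was the most abundant miRNA of every library, with 22045, 115591 and 27308 UMIs in libraries 1, 2 and 3. Its share was 28.5%, 31.0% and 26.8%. Library 2 was the highest and library 3 the lowest, with no overlap of their intervals. Without bta-let-7b the other 8 family members held 17.6%, 16.5% and 15.6%, and here library 1 was the highest.

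Bta-let-7a-5p, the form that is identical in sequence from worm to human, had 7856, 35757 and 9232 UMIs, or 10.2%, 9.58% and 9.05%, and took rank 2 in each library. Bta-let-7b outnumbered it in every library, by 2.81-fold, 3.23-fold and 2.96-fold. Bta-let-7c had 2940, 13454 and 3368 UMIs, or 3.81%, 3.60% and 3.30%. Bta-let-7f had 2022, 9378 and 2516 UMIs, or 2.62%, 2.51% and 2.47%. These 4 members made up 97.9%, 98.2% and 98.1% of the family UMIs.

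The remaining 5 family members were rare. Bta-let-7i had 288, 1155 and 284 UMIs, or 0.373%, 0.309% and 0.278%. Bta-let-7e had 215, 978 and 260 UMIs, or 0.278%, 0.262% and 0.255%. Bta-let-7d had 132, 540 and 149 UMIs, or 0.171%, 0.145% and 0.146%. All 3 lay between rank 30 and rank 57 of the listed miRNAs. Bta-let-7g had 81, 336 and 90 UMIs, or 0.105%, 0.0900% and 0.0882%. Bta-miR-98, which carries the let-7 seed under another name, was the lowest member with 44, 125 and 44 UMIs, or 0.0570%, 0.0335% and 0.0431%, and ranked 142, 118 and 194. Bta-let-7b outnumbered bta-miR-98 by 501-fold, 925-fold and 621-fold.

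**Figure D1:**
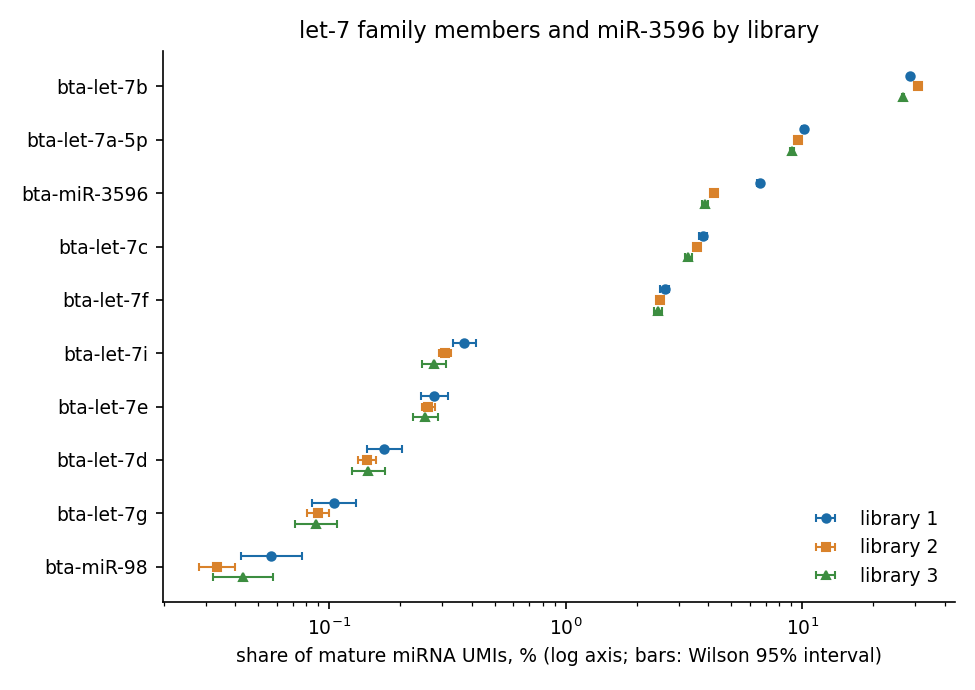
Share of the mature miRNA UMIs on a log axis for each of the 10 members in libraries 1, 2 and 3, with Wilson 95% intervals as bars. Let-7b lay at 26.8 to 31.0% and miR-98 at 0.0335 to 0.0570%, and a wide gap separated let-7f from let-7i.

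The order of the members was the same in every library: let-7b, let-7a-5p, miR-3596, let-7c, let-7f, let-7i, let-7e, let-7d, let-7g and miR-98. Of the 9 neighbouring pairs in this order, 8 had Wilson intervals that did not overlap in any library. The exception was let-7i and let-7e, whose intervals overlapped in library 3 (0.248 to 0.313% for let-7i and 0.226 to 0.288% for let-7e), and whose mean log2 ratio was 0.26 ± 0.15. The widest step was between let-7f and let-7i, at 2.99 ± 0.17 on the log2 scale (SD, n = 3 libraries), a 7.96-fold difference. Let-7d stood above let-7g by 0.71 ± 0.02 on the log2 scale, the smallest SD of the 9 steps. Counting error alone would give their shares an SD of 7.53% (let-7d) and 9.60% (let-7g) of the mean. So small an SD is therefore no sign of a steadier step. In an exact two-sided sign permutation test within libraries every pair gave p = 0.25 (0.25 also after Benjamini-Hochberg correction over the 9 pairs), the smallest p that 3 libraries allow, so this design cannot reach 0.05. The tested order was itself taken from the mean shares of these libraries, so the test adds no support for it. Let-7 miRNAs are near-identical in sequence, and the sources used here do not say how reads with several matches were assigned, so the split of UMIs between members is uncertain.

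Within the family, the make-up was nearly constant. Let-7b held 61.9%, 65.2% and 63.1% of the family UMIs in libraries 1, 2 and 3 (63.4% ± 1.67, SD, n = 3 libraries), and let-7a-5p held 22.1%, 20.2% and 21.3% (21.2% ± 0.953). Let-7c held 7.88% ± 0.341, let-7f 5.59% ± 0.274 and the 5 rare members together 1.94% ± 0.184. Small as they were, the shifts of let-7b exceeded counting error, as its intervals were separate for all 3 pairs of libraries. For let-7e, let-7d and let-7g the intervals overlapped for every pair of libraries. Such overlap shows no difference but does not exclude one. Library 2 held the highest proportion of let-7b and the lowest proportion of each of the other 8 members. The proportion of miR-98 differed most between libraries, by 1.75-fold (0.124%, 0.0705% and 0.102%), and only its libraries 1 and 2 had separate intervals.

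**Figure D2:**
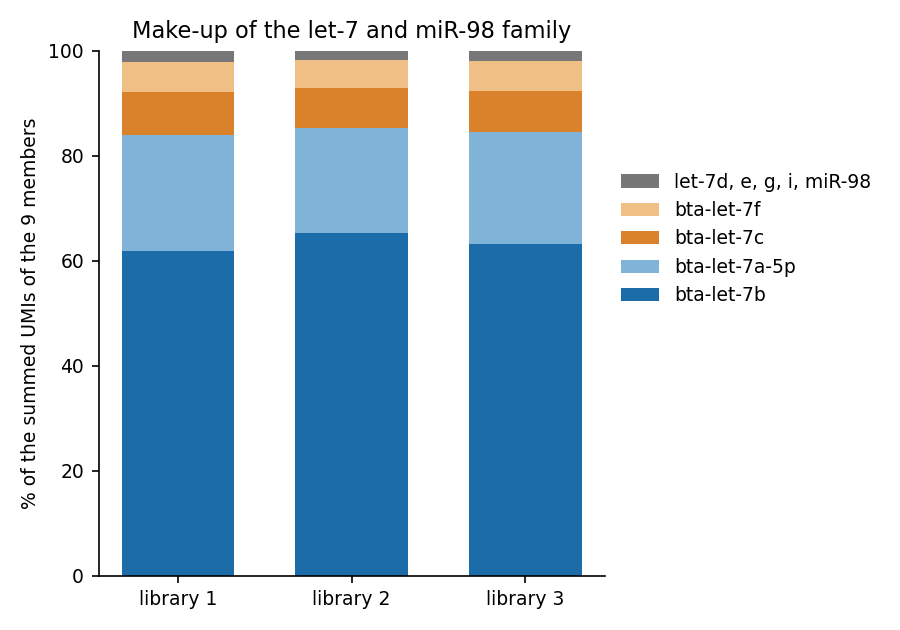
Stacked bars give the percentage of the summed UMIs of the 9 family members held by let-7b, let-7a-5p, let-7c, let-7f and the 5 rare members in each library. Let-7b filled 61.9 to 65.2% of each bar, and the 5 rare members 1.77 to 2.13%.

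The genes of the hairpins were looked up by name in the RefSeq gene table of the assembly ARS-UCD2.0, which gives no strand, and all 10 members matched, with 13 hairpin genes in all. No genome build is named for the counts, so the table served for names and neighbours only. Let-7a-5p has 3 hairpin genes, on chromosomes 5, 8 and 15, and let-7f has 2, on chromosomes 8 and X. Each of the other 8 members has 1. Let-7b, with 1 hairpin gene on chromosome 5, had the highest share, while let-7a-5p and let-7f took places 2 and 5 of the 10 members. The mean share of let-7a-5p divided by its hairpin genes was 3.20%, and that of let-7f was 1.27%. MIRLET7B, MIRLET7A-3 and MIR3596 lie together and overlap a gene annotated as protein-coding, LOC101903200. MIRLET7G overlaps WDR82, which encodes a subunit of histone H3 lysine 4 methyltransferase complexes, and MIRLET7F-2 and MIR98 overlap HUWE1, which encodes a ubiquitin ligase. MIRLET7C overlaps the long non-coding RNA gene LOC132345457 on chromosome 1.

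Mature miRNAs whose hairpins neighbour each other were counted at very unequal levels. On chromosome 8, MIRLET7A-1, MIRLET7F-1 and MIRLET7D lie together. The ratio of let-7f to let-7a-5p was 0.257, 0.262 and 0.273 in libraries 1, 2 and 3, and that of let-7d to let-7a-5p was 0.0168, 0.0151 and 0.0161. These ratios were steady across libraries, but let-7a-5p and let-7f also have hairpins elsewhere, so the output of this group alone cannot be told apart from theirs. On chromosome X, MIR98 neighbours MIRLET7F-2, and the ratio of miR-98 to let-7f was 0.0218, 0.0133 and 0.0175. Here too the output of MIRLET7F-2 cannot be told apart from that of MIRLET7F-1 on chromosome 8.

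Other miRNAs neighbour let-7 hairpins as well. The list compared here held 7 miRNAs. It took the other arm of let-7a, and the miR-99, miR-100 and miR-125 miRNAs whose hairpins lie within 100 kb of MIRLET7C, MIRLET7A-2 or MIRLET7E. In mammals these form ancient clusters. MIR2443, MIR12038 and MIR135A-1 also lie within 100 kb of a let-7 hairpin but were not on the list. Of the 7, 6 were listed in every library, and miR-99a-3p had 18 UMIs in library 2 and was not listed in the others. Beside MIRLET7C on chromosome 1, miR-99a-5p had 59, 552 and 136 UMIs, so let-7c outnumbered it by 49.8-fold, 24.4-fold and 24.8-fold. MiR-125b had 1297, 13486 and 2955 UMIs, and its ratio to let-7c was 0.441, 1.00 and 0.877. Library 1 therefore stood apart from the other libraries in both ratios. Another hairpin of miR-125b lies beside MIRLET7A-2 on chromosome 15, and the output of the 2 hairpins cannot be told apart. Against the 7856, 35757 and 9232 UMIs of let-7a-5p, miR-100, also beside MIRLET7A-2, had 14, 17 and 12 UMIs, close to the lowest count listed.

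Beside MIRLET7E on chromosome 18, let-7e lay below miR-125a and above miR-99b. MiR-125a had 871, 6930 and 1976 UMIs and exceeded let-7e by 4.05-fold, 7.09-fold and 7.60-fold. MiR-99b had 80, 558 and 136 UMIs, and let-7e exceeded it by 2.69-fold, 1.75-fold and 1.91-fold. In library 1 the partners miR-99a-5p, miR-125b, miR-99b and miR-125a were all low relative to their let-7 neighbour. The ratio of miR-100 to let-7a-5p, at 0.00178, 0.000475 and 0.00130, was highest there. Its counting intervals in libraries 1 and 3, 0.00106 to 0.00299 and 0.000743 to 0.00227, overlapped. So did those of miR-99b to let-7e, 0.288 to 0.481 and 0.425 to 0.643. Library 1 also had the smallest mature miRNA total, and the part of depth in these ratios was not tested.

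The other arm of let-7a was rare. Bta-let-7a-3p had 37, 100 and 30 UMIs, and its ratio to let-7a-5p was 0.00471, 0.00280 and 0.00325 (0.00359 ± 0.00100, SD, n = 3 libraries). The intervals of libraries 1 and 2, 0.00341 to 0.00650 and 0.00230 to 0.00340, barely missed each other, and that of library 3 overlapped both. No other let-7 miRNA outside the members was listed in any library.

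Bta-miR-3596 took place 3 among the members and, by share, differed from let-7b in its order of libraries. It had 5099, 15859 and 3962 UMIs in libraries 1, 2 and 3, or 6.60%, 4.25% and 3.88%, and took ranks 3, 5 and 4 among all miRNAs. Library 1 was the highest, well apart from the other libraries. The share of let-7b was the highest in library 2. After the TMM scaling described below, library 2 was the highest for both. MiR-3596 reached 0.231, 0.137 and 0.145 UMIs per UMI of let-7b (0.171 ± 0.0522, SD, n = 3 libraries). The counting intervals were 0.224 to 0.238, 0.135 to 0.139 and 0.140 to 0.150, so all 3 libraries differed beyond counting error, and library 1 exceeded library 2 by 1.69-fold while library 3 exceeded it by 1.06-fold. MIR3596 overlaps MIRLET7B in the RefSeq table. The sources used here do not say whether the counting used strand, and without strand the UMIs of a miRNA and of its antisense partner cannot be told apart, so the split between miR-3596 and let-7b is uncertain.

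Overlapping hairpin genes of other miRNAs were set beside this pair. Of the 745 listed miRNAs, 729 matched a hairpin gene, and 4 overlapping pairs had a more abundant miRNA with a mean of at least 100 UMIs. In 3 of these both miRNAs were listed in every library. MiR-148d had 857, 2484 and 645 UMIs beside the 4053, 21175 and 4709 UMIs of miR-148a, a ratio of 0.211, 0.117 and 0.137. MiR-26c had 154, 629 and 137 UMIs beside the 480, 3843 and 701 UMIs of miR-26a, a ratio of 0.321, 0.164 and 0.195. In each of the 3 pairs library 1 had the highest ratio and library 2 the lowest, and library 1 exceeded library 2 by 1.69-fold, 1.80-fold and 1.96-fold for miR-3596, miR-148d and miR-26c. For miR-26c the counting intervals of libraries 2 and 3, 0.150 to 0.178 and 0.163 to 0.235, overlapped. In the remaining pair miR-191b had 25 UMIs in library 2 beside 7478 of miR-191, a ratio of 0.00334, and was not listed in libraries 1 and 3. Library 1, where all 3 ratios were highest, had the smallest mature miRNA total and the lowest mature share of all UMIs, and the part of these in the ratios was not tested.

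**Figure D3:**
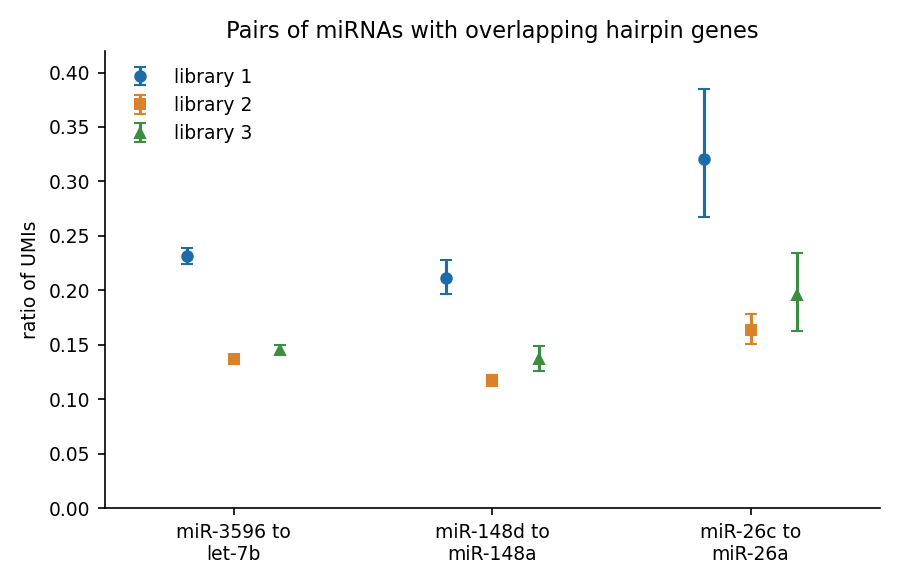
Ratio of UMIs within the 3 pairs of overlapping hairpin genes whose miRNAs were both listed in every library, with the 95% intervals that counting error gives. In every pair library 1 was the highest, at 0.231, 0.211 and 0.321, and library 2 the lowest, at 0.137, 0.117 and 0.164. For miR-26c the intervals of libraries 2 and 3 overlapped.

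The profile of each member over the libraries, its log2 share minus its mean over the 3 libraries, separated miR-3596 from the abundant family members. MiR-3596 had a profile of 0.47, -0.17 and -0.30 in libraries 1, 2 and 3. Let-7b had -0.01, 0.11 and -0.10, and let-7a-5p, let-7c and let-7f stayed between -0.11 and 0.09. Of the family, miR-98 moved furthest, at 0.39, -0.38 and -0.01, but on 44 to 125 UMIs. With a minimum of 300 UMIs in each library, the profile nearest to miR-3596 was that of miR-148d, at a distance (root of the summed squared differences) of 0.07. MiR-11976 and miR-11975 came next, at 0.37 and 0.42, and then let-7c and let-7a-5p at 0.46 and 0.47. Let-7b, whose hairpin gene overlaps that of miR-3596, took place 10 of 27 with 0.59. The 5 miRNAs nearest to the summed family, out of 23 that are no members, were miR-141, miR-148a, miR-423-5p, miR-16a and miR-16b, at 0.08, 0.09, 0.22, 0.28 and 0.28. Likeness over 3 libraries is a description only, and how these lists depend on the minimum and the libraries is given with the other processing choices.

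**Figure D4:**
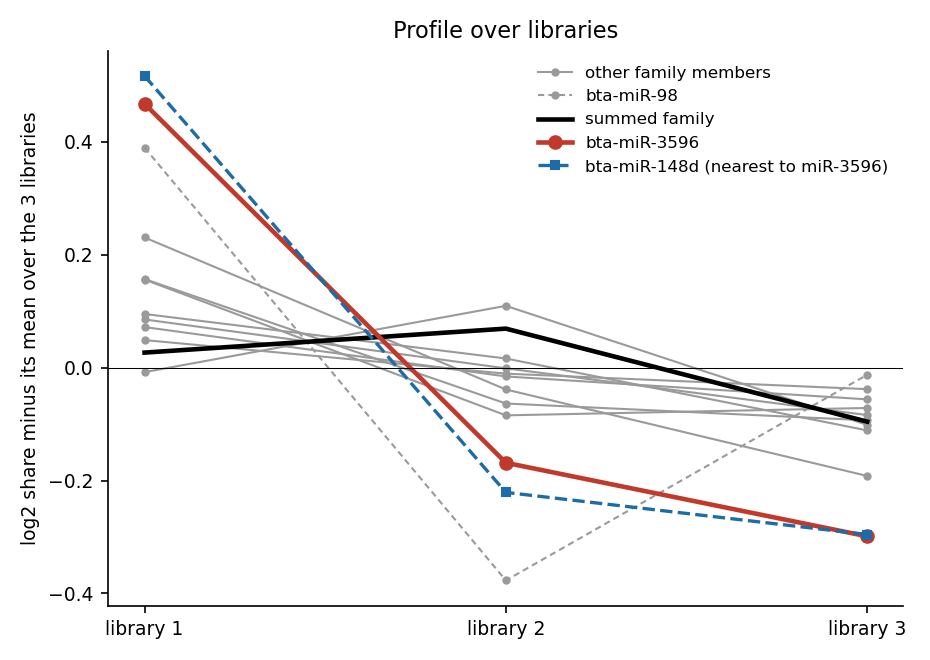
Log2 share minus its mean over the 3 libraries, where each line joins the values of 1 miRNA and the libraries have no order. MiR-3596 and miR-148d ran together, high in library 1 at 0.47 and 0.52, while the summed family stayed between -0.10 and 0.07.

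The shares of most members varied little between libraries. The coefficient of variation (SD over mean) of the share was 3.09% for let-7f, 4.57% for let-7e, 5.87% for let-7a-5p, 7.15% for let-7c and 7.35% for let-7b, against a median of 50.8% over the 435 miRNAs listed in every library. It was 9.61% for let-7d, 9.71% for let-7g and 15.1% for let-7i. Of the 435 miRNAs, 2 had a lower value than let-7f and 37 a lower value than let-7i. MiR-98 and miR-3596 stood apart with 26.5% and 30.1%. Over the 58 miRNAs that reached 100 UMIs in each library the median for shares was 25.0%. MiR-3596 lay above that median and the 7 family members in this set lay below it. Counting error alone would give 5.67% for let-7e, more than the observed value, and 9.60% for let-7g, just under the observed value. For miR-98 counting error would give 14.5%. For let-7b and miR-3596 the observed value was 16.2 and 22.7 times that of counting error.

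This small spread holds for shares and not for every scaling. The family is itself a large part of the total that its share is taken from. TMM scaling sets libraries equal for the bulk of the 435 miRNAs (factors of 1.36, 0.561 and 1.31). Most of these had low counts, as only 58 reached 100 UMIs in each library. The lowest listed count, 11 UMIs, is a larger share of library 1 than of library 2, and its part in the factors was not tested. After TMM scaling the family level in library 2 was 2.49-fold that of library 1 and 2.62-fold that of library 3. The coefficient of variation was then 59.1% for the family against 5.85% by share, 61.8% for let-7b and 45.2% for miR-3596, with a median of 37.6% over the 435 miRNAs. Over the 58 abundant miRNAs the median after TMM scaling was 55.6%, so that for shares these miRNAs varied less than all 435 and after TMM scaling more. MiR-3596 then lay below the median of the 58, let-7b lay above it, and the family was close to it. By TMM level, miR-3596 and let-7b also had the same order of libraries, with library 2 the highest. With DESeq2 size factors, another scaling, library 2 was again the highest for both, but the full order differed. Library 3 then lay above library 1 for let-7b (21.4 and 20.1) and below it for miR-3596 (3.10 and 4.64). In libraries 1, 2 and 3 the TMM level of miR-3596 was 4.87%, 7.57% and 2.96% of the scaled total. That of let-7b was 21.0%, 55.2% and 20.4%. A scaled total is no sum of counted UMIs, so these levels are not shares of a library. Leaving out 1 library also mattered. The coefficient of variation of the family share was 2.08% without library 3, that of let-7b was 4.58% without library 2, and that of miR-3596 was 6.38% without library 1. The ratios between members do not depend on the scaling.

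**Figure D5:**
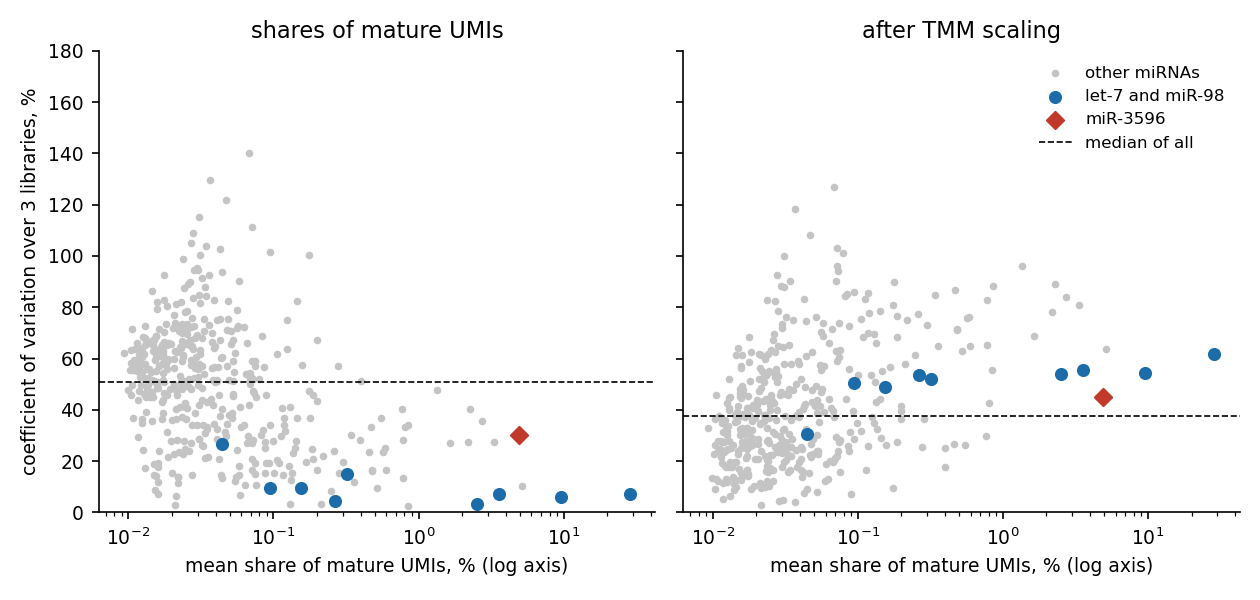
Coefficient of variation over the 3 libraries for the 435 miRNAs listed in every library against their mean share on a log axis, for shares (left) and after TMM scaling (right), with the median of all as a dashed line. Family members lay at 3.09 to 26.5% for shares, under the median of 50.8%, and 8 of the 9 lay above the median of 37.6% after TMM scaling.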

How the data were processed

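Small RNA of BM-EVs was sequenced in 3 libraries, assigned to replicates 1 to 3 by the sample titles. The authors built them with a miRNA kit carrying UMIs, trimmed and filtered the reads, and mapped them to miRBase and then Rfam. Bowtie 1.2.2, cutadapt 2.7 and FastQC are the tools that the submitters' notes on processing list. The deposited values are UMI counts that were not normalized, listed by mature miRNA or by Rfam entry. The sources used here give no database versions, mismatch limits or strand use.

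Shares, Wilson 95% intervals, ratios, coefficients of variation and log2 profiles were computed with Python 3.11.15, pandas 2.3.3, numpy 2.4.6 and scipy 1.17.1, and the plots with matplotlib 3.10.9. Intervals of ratios were derived from the Wilson interval of the share within the pair. TMM factors came from edgeR 4.0.16 and size factors from DESeq2 1.42.0 in R 4.3.3, over miRNAs listed in every library. The spread and the profile search were tested on simulated data. An unlisted miRNA was entered as 0. Neighbours were compared with an exact sign permutation test.

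The text names all members, 7 neighbouring or other-arm miRNAs, the 5 nearest profiles at a minimum of 300 UMIs, and pairs of overlapping hairpins with a mean of at least 100 UMIs. Members and lists were chosen with earlier results of these data known. Opposite-strand pairs were planned by mature sequence. Sequences were not analysed here, so overlap of hairpin genes in RefSeq, chosen after seeing the data, took their place, and miRNAs sharing a seed with a member were not searched.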

Additional observations from a re-analysis of the deposited data

How the results depend on the processing

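The family share of 45.3% was 46.4% with pooled UMIs, 46.3% over miRNAs listed in every library, and 44.3 to 46.8% when 1 library was left out. It was 50.2% with miR-3596 and 5.14% of all miRNA and Rfam UMIs, as the sums differ. Divided by scaled totals (TMM or DESeq2) it averaged 50.3% in either case, which is no share of the mature UMIs. The coefficient of variation of the family, 5.85%, was 59.1% with TMM and 59.0% with DESeq2 size factors, and 2.08 to 8.07% when 1 library was left out. Of the 5 miRNAs nearest to the family profile, 2 were found again with a minimum of 100 UMIs, 1 with 1000 UMIs, and 2 to 4 when 1 library was left out. For miR-3596 these numbers were 1, 2, and 3 to 4. Fewer or more miRNAs pass each minimum, and otherwise the cause was not tested. The median ratio over the 3 overlapping pairs listed in every library, 0.171, is that of miR-3596 to let-7b itself, so it is no separate reference. It was 0.227 with a minimum of 10 UMIs (5 of 14 pairs), chosen after seeing the data. Both medians leave out pairs with a miRNA unlisted in some library, such as miR-191b and miR-191. The order of the members is the same in each library, so pooling UMIs or leaving out 1 library could not change it. The number of neighbouring pairs with separate intervals, 8, was 9 without library 3. The ratio of the let-7a arms and that of miR-3596 to let-7b stayed within 1 SD of their means under every alternative run. Of 105 values for single miRNAs, 93 stayed within the limits set for them, which for a share was 1 SD. The other 12 did not, among them 7 proportions of the family that fell once miR-3596 was added to the total. The median spread of all miRNAs, 50.8%, was 25.0% with a minimum of 100 UMIs. Leaving out 1 of 3 libraries cannot move a mean by 1 SD, so those counts say nothing of stability. Pairs by sequence were not run. With a single group there was nothing to pair. At 44 to 125 UMIs, depth limits what can be said of miR-98.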
